A study of Mus musculus with 40 samples.

Results

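The mitochondrial genome of the mouse holds 37 genes, and all of them, chosen by a symbol that starts with mt-, are among the 56980 genes counted in a study of the medial prefrontal cortex of wild type female C57BL/6J mice. They are 13 protein-coding genes, 2 ribosomal RNA genes and 22 transfer RNA genes. The 40 libraries, made from polyadenylated RNA, fall into 8 groups of 5. Adult mice, whose treatment started at postnatal day 55, and adolescent mice, whose treatment started at postnatal day 25, were given oral antibiotics or stayed on water, and received subcutaneous morphine at 15 mg/kg or saline on 5 days. All animals were therefore injected, and the antibiotics are not named in the labels. The labels call the tissue brain, name the region only in the series title, and do not say that each library is a separate mouse, so p-values measure the spread between these libraries.

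The mitochondrial genome is read as long transcripts from both strands, and the tRNA genes that lie between the other genes mark where these transcripts are cut. The proteins are core subunits of 4 of the respiratory chain complexes: complex I (the Nd genes), complex III (mt-Cytb), complex IV (the Co genes) and complex V, the ATP synthase (the Atp genes). The remaining subunits of these complexes, and all proteins of the mitochondrial ribosome, come from nuclear genes. Mature mRNAs and rRNAs of mammalian mitochondria carry short poly(A) tails, and in human cells mt-Nd6 is the usual exception.

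The 5 mitochondrial genes with the smallest adjusted p between ages or drinks, over all groups, are all tRNA genes. Their gene sequences in GENCODE M21, which is on GRCm38, the assembly behind mm10, are shown 5′ to 3′ with the anticodon in capitals, because these few bases name the amino acid each carries. The tRNA genes mt-Tq for glutamine (chrM:3772-3842), mt-Te for glutamate (chrM:14071-14139) and mt-Ty for tyrosine (chrM:5260-5326) are on the minus strand, while mt-Tw for tryptophan (chrM:4950-5016) and mt-Tt for threonine (chrM:15289-15355) are on the plus strand.
mt-Tq: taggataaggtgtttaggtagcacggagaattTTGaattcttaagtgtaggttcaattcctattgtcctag
mt-Te: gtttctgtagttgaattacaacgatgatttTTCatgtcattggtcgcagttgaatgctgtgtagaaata
mt-Ty: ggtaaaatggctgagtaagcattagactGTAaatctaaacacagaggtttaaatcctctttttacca
mt-Tw: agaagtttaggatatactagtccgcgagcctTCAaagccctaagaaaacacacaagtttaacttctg
mt-Tt: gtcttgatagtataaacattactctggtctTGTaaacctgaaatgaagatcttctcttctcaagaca

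Libraries held 8636712 to 12098769 counts, so that 3 counts in a library stood for 0.248 to 0.347 CPM, the unit of counts scaled to library size that is used throughout. Slc17a7, the vesicular glutamate transporter of cortical excitatory neurons, was high in every library at 1508 to 1974 CPM, while the choroid plexus marker Ttr stayed at or under 0.870 CPM. CPM were computed on the tested genes after TMM scaling, and shares are percent of all deposited counts.

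Mitochondrial genes took 4.23% ± 0.54 of all counts (SD, n = 40), between 3.47% and 5.77%. The protein-coding genes took 3.67%, the rRNA genes 0.542% and the tRNA genes 0.0168% on average. By group, the share was 4.08% ± 0.30 in adults on antibiotics with morphine, 4.65% ± 0.51 in adults on antibiotics with saline, 4.64% ± 0.72 in adults on water with morphine and 4.15% ± 0.50 in adults on water with saline (SD, n = 5 each). In adolescents it was 3.90% ± 0.35 on antibiotics with morphine, 3.93% ± 0.27 on antibiotics with saline, 3.99% ± 0.21 on water with morphine and 4.47% ± 0.76 on water with saline. The group means lay between 3.90% and 4.65%, and the ranges of all 8 groups overlapped. The share was 4.38% ± 0.56 in adults and 4.07% ± 0.48 in adolescents, 4.14% ± 0.46 on antibiotics and 4.31% ± 0.60 on water, and 4.15% ± 0.50 under morphine and 4.30% ± 0.57 under saline (SD, n = 20 each). These differences are smaller than the SD of single libraries, which does not measure how well a mean of 20 is known. They were not tested. Single libraries stood high in their groups: replicate 4 of adults on water with morphine at 5.77%, replicate 5 of adolescents on water with saline at 5.68%, and replicate 1 of adults on antibiotics with saline at 5.35%. A share in tissue does not separate fewer mitochondria-rich cells from less mitochondrial RNA per cell.

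**Figure D1:**
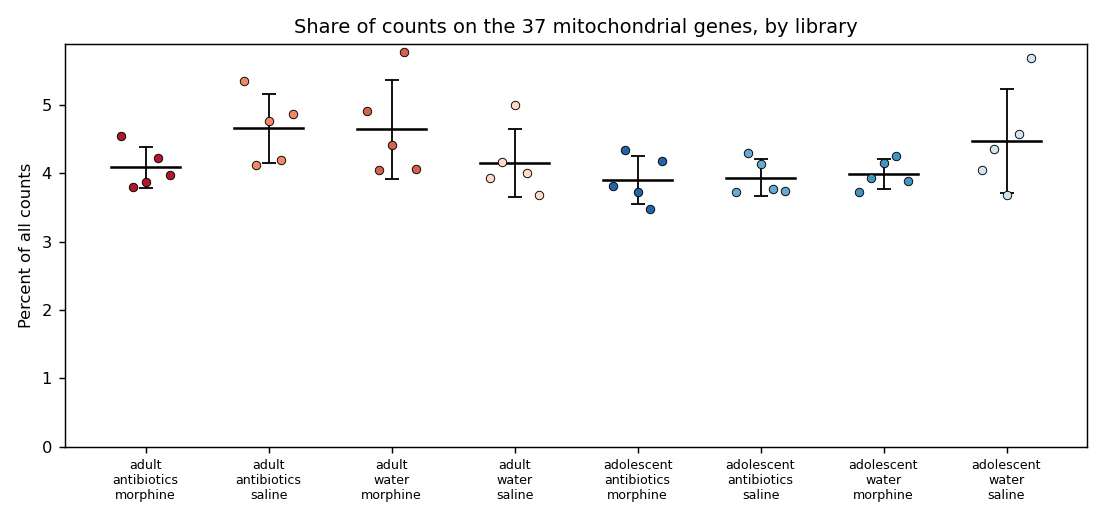
Percent of all counts on the 37 mitochondrial genes (y axis) in each of the 8 groups of 5 libraries (x axis). Points are libraries, long bars the mean and whiskers the SD; libraries span 3.47% to 5.77%, and the group means 3.90% to 4.65%.

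A single gene dominated. Cytochrome c oxidase subunit I, mt-Co1, held 34.7% of the mitochondrial counts, with a narrow range of 32.8% to 36.5% over the libraries. It was followed by mt-Cytb with 13.5%, mt-Nd1 with 11.01%, mt-Nd5 with 10.1% and the large rRNA mt-Rnr2 with 7.67%. Per kilobase of gene, mt-Co1 again led with 9511 CPM per kb, and mt-Cytb (5003) and mt-Nd1 (4871) came next. mt-Nd2, mt-Nd6, mt-Nd5, the small rRNA mt-Rnr1, mt-Nd4 and mt-Rnr2 formed a tight band of 2607 to 2048 CPM per kb, in that order, and the ranges of neighbours over libraries overlapped. mt-Nd6, the only protein-coding gene on the minus strand, was thus inside this band at 2519 CPM per kb. The libraries were made from polyadenylated RNA, so counts of RNAs that differ in their tails cannot be compared as amounts of RNA. This limit applies to the rRNA genes and to mt-Nd6, and the part of the tails was not tested.

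The remaining 6 protein-coding genes were far lower. mt-Co2 averaged 150 CPM per kb, mt-Atp6 102 and mt-Co3 101, and mt-Nd3 (26.3), mt-Nd4l (24.7) and mt-Atp8 (9.75) were lower still. These genes follow each other from mt-Co2 to mt-Nd4l, with only tRNA genes between them. They code for subunits of complexes I and IV, which also have abundant mitochondrial transcripts, and for both mitochondrial subunits of complex V. mt-Co2 and mt-Co3 are, with mt-Co1, the catalytic core of complex IV, and mt-Co1 had 9511 CPM per kb. Nearly all of mt-Co2 and mt-Co3 also occurs in nuclear copies, as described below. Their distance to mt-Co1 therefore cannot be read as a difference in RNA level.

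**Figure D2:**
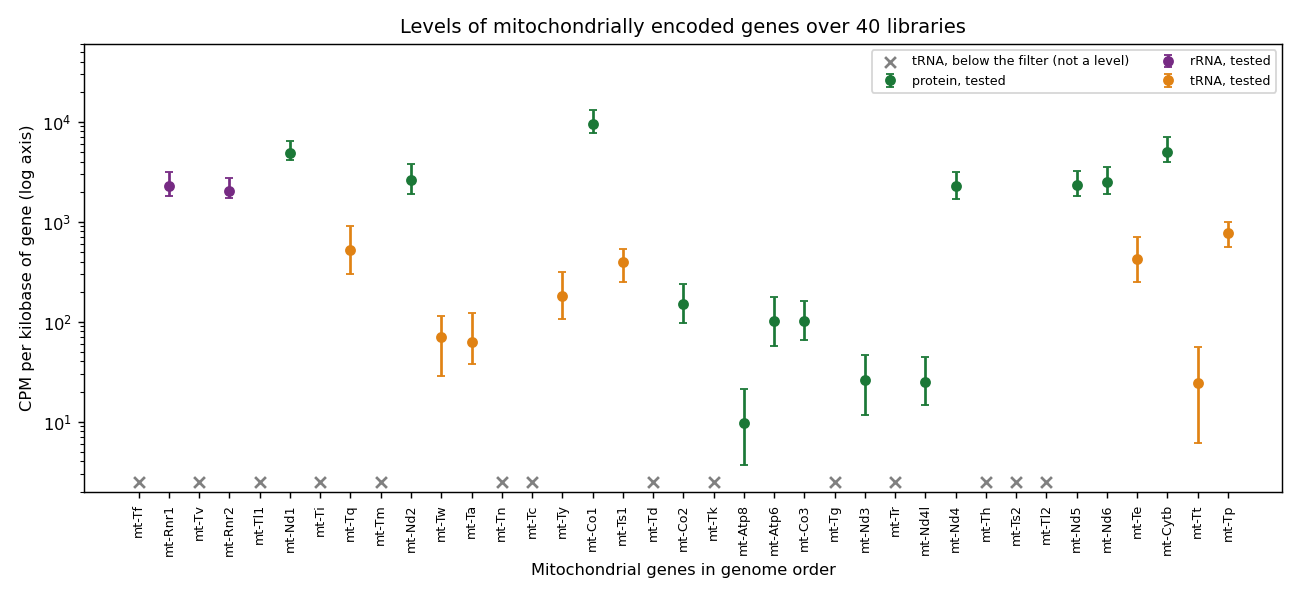
Mean level of each mitochondrial gene in CPM per kilobase (y axis, log scale) in genome order (x axis), with whiskers from the lowest to the highest of 40 libraries; crosses mark tRNA genes below the filter and are no level. The 6 genes from mt-Co2 to mt-Nd4l lie between 9.75 and 150 CPM per kb, under the other 7 protein-coding genes, which lie between 2273 and 9511. The values of these 6 genes are uncertain, for reasons given in the text. Values of the short tRNA genes are not comparable with those of the longer genes.

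The same stretch of the genome has near-perfect copies in nuclear DNA, which the reference annotates as pseudogenes. Of all windows of 100 bases, 99.5% in mt-Co2, 99.5% in mt-Atp6, 99.9% in mt-Co3, 97.6% in mt-Nd3 and 98.5% in mt-Nd4l occur letter for letter in another annotated transcript. The share was 60.8% in mt-Nd4, 30.8% in mt-Co1 and 3.2% in mt-Nd2, and it was 0 in the other protein-coding genes and in both rRNA genes. The copies of mt-Co2 (Gm28661), mt-Atp6 (Gm10925), mt-Co3 (Gm28437), mt-Nd3 (Gm28438) and mt-Nd4l (Gm10222) are on the minus strand of chromosome 1 and had 0 mismatches over 681, 678, 783, 342 and 294 aligned bases, in that order. An older copy of mt-Co2 on chromosome 2, Gm13341, has 16 mismatches and 12 gap bases. A stretch of 80 bases of mt-Co2 shows the difference. Capitals mark bases of a copy that differ from mt-Co2, shown on the coding strand of each: mt-Co2 at chrM:7463-7542 on the plus strand, Gm28661 at chr1:24615036-24615115 and Gm13341 at chr2:22587445-22587524, both on the minus strand.
mt-Co2: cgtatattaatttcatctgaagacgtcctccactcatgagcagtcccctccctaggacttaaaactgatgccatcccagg
Gm28661: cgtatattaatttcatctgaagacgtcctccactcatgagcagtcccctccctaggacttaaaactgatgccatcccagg
Gm13341: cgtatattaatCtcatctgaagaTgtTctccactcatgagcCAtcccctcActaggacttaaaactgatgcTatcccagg
Counted from base 1 of mt-Co2, the 7 substitutions in Gm13341 are T462C, C474T, C477T, A492C, G493A, C501A and C522T.

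Reads were counted on the copies as well as on the mitochondrial genes. mt-Co2 had a median of 995 counts per library, against 1014 for Gm28661. mt-Atp6 had 656, against 1095.5 for Gm10925, and mt-Co3 had 761, against 666.5 for Gm28437. mt-Nd3 and Gm28438 were level at 85.5 each, and mt-Nd4l (72.0) and Gm10222 (72.5) were close. Abundant genes stood far above their copies. mt-Co1 had a median of 138126 counts, against 674 for Gm29216, a partial copy on chromosome 1, and 662 for Gm13340, a copy on chromosome 2 that aligns over all 1545 bases with 37 mismatches. After removal of the group means, r over libraries was 0.94 for mt-Co2 and Gm28661, 0.97 for mt-Atp6 and Gm10925, 0.95 for mt-Co3 and Gm28437, 0.90 for mt-Nd3 and Gm28438 and 0.77 for mt-Nd4l and Gm10222 (n = 40 libraries, which share depth, each pair sharing identical sequence). It was lower for mt-Nd4 and Gm28439 (0.64) and for mt-Co1 and Gm29216 (0.55). The treatment of reads with more than 1 match is not stated in the processing notes. The column names of the counts end in ReadsPerGene.out, as do the gene counts that STAR writes. Those counts leave out reads with more than 1 match. The values of the 5 genes with whole copies are therefore uncertain and may be too low. The same limit holds in part for mt-Nd4 and mt-Co1, with 60.8% and 30.8% of windows copied, and for their levels per kilobase. No window of 100 bases of mt-Atp8, the lowest of the 6, occurs in another annotated transcript. Only annotated transcripts were searched, however. Most of mt-Atp8 lies between mt-Co2 and mt-Atp6. On chromosome 1 the copy Gm10925 ends at base 24614651 and Gm28661 starts at base 24614885. The bases between them were not searched, so the value of mt-Atp8 is uncertain as well.

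The tRNA genes split sharply as well. The filter on low counts passed 8 of them: mt-Tq, mt-Tw, mt-Ta (alanine), mt-Ty, mt-Ts1 (serine, UCN codons), mt-Te, mt-Tt and mt-Tp (proline). The other 14 never had more than 6 counts in a library and had medians of 0 to 1, and mt-Tv, mt-Tk, mt-Tg, mt-Tr and mt-Th had 0 counts in all 40 libraries. Position on the genome ran with this split. Of the 22 tRNA genes, 9 have, on at least 1 side, 100 or more bases free of any gene of their own strand or the end of the annotation, and 8 of these 9 passed; mt-Tf, at the first base of the sequence, did not. None of the other 13, which are packed between genes of their own strand, passed. A tRNA gene is shorter than many sequencing fragments, and the share of these counts that comes from neighbouring or unprocessed RNA was not tested. Per kilobase the order was mt-Tp (765 CPM per kb), mt-Tq (526), mt-Te (423), mt-Ts1 (397), mt-Ty (180), mt-Tw (70.1), mt-Ta (62.1) and mt-Tt (24.1). The ranges over libraries of neighbours in this order overlapped. For genes this short, values per kilobase are not comparable with those of the longer genes and are no level of mature tRNA.

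Age gave the most calls. Over all treatments, with 20 libraries on each side, 10 of the 23 tested mitochondrial genes were higher in adults than in adolescents and 0 were lower, at an adjusted p under 0.05 in edgeR's quasi-likelihood test. Of all 17880 genes tested, 9.28% were called higher in adults and 8.57% lower, 17.9% in all. The 10 were 6 tRNA genes (mt-Ty, mt-Te, mt-Tw, mt-Tt, mt-Tq, mt-Tp) and 4 protein-coding genes (mt-Nd5, mt-Nd2, mt-Co1, mt-Nd6), while neither rRNA gene was called. The median log2 fold change was 0.10 over the 23 genes, 0.36 over the 8 tRNA genes and 0.07 over the 13 protein-coding genes, against 0.01 over all genes.

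The tyrosine tRNA gene mt-Ty had the smallest p. It ranged from 8.99 to 20.9 CPM in adults with a median of 14.1, and from 7.08 to 13.2 CPM in adolescents with a median of 9.76. The adult libraries are the upper part of the spread, with an overlap between 8.99 and 13.2 CPM. Its log2 fold change was 0.54 ± 0.08 (SE; adjusted p = 1.01e-06, edgeR). The glutamate tRNA gene mt-Te had 25.8 to 48.9 CPM in adults (median 32.7) and 17.02 to 35.8 CPM in adolescents (median 24.3). Its log2 fold change was 0.47 ± 0.06 (adjusted p = 1.28e-06, edgeR), and the adult minimum exceeded the adolescent median.

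The tryptophan tRNA gene mt-Tw had a median of 5.68 CPM in adults (2.55 to 7.57) and 4.01 CPM in adolescents (1.91 to 5.68), a log2 fold change of 0.55 ± 0.10 (adjusted p = 1.36e-04, edgeR). The threonine tRNA gene mt-Tt, with 4 to 35 counts a library, had a median of 1.78 CPM in adults (1.19 to 3.75) and 1.17 CPM in adolescents (0.408 to 2.52), and the largest fold change of the 23 genes, 0.72 ± 0.16 (adjusted p = 0.00102, edgeR). For both, the groups overlapped over most of the adolescent range. The glutamine and proline genes changed less, with log2 fold changes of 0.24 ± 0.07 for mt-Tq and 0.18 ± 0.06 for mt-Tp. The call on mt-Tp was lost in 19 of 40 fits that left out 1 library each, with adjusted p up to 0.0730 in edgeR, without replicate 3 of adults on water with saline.

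Of the protein-coding genes, 3 of 7 for complex I and 1 of 3 for complex IV were called, and 0 for complexes III and V. mt-Nd5, a proton-pumping subunit of complex I, had a median of 4302 CPM in adults (3376 to 5820) and 3939 CPM in adolescents (3271 to 5206). Its log2 fold change was 0.23 ± 0.06 (adjusted p = 0.00307, edgeR), and 7 adult libraries, at 5279 CPM or more, stood above every adolescent library. mt-Nd2 had a median of 2717 CPM in adults (2323 to 3936) and 2537 CPM in adolescents (1947 to 3592), a log2 fold change of 0.18 ± 0.05. mt-Nd6 had a median of 1324 CPM in adults (975.3 to 1833) and 1209 CPM in adolescents (1013 to 1564), a log2 fold change of 0.19 ± 0.06. mt-Co1 had 12694 to 20072 CPM in adults (median 14803) and 11958 to 18952 CPM in adolescents (median 13530), a log2 fold change of 0.15 ± 0.05 (adjusted p = 0.0208, edgeR). These ranges overlap almost fully, and the call on mt-Co1 was lost in 4 of 40 fits that left out 1 library: replicate 4 of adolescents on antibiotics with morphine, replicate 3 of adults on water with saline, replicate 3 of adults on antibiotics with saline or replicate 4 of adults on water with morphine (adjusted p up to 0.0597).

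The 2 rRNA genes were level between ages, with log2 fold changes of 0.03 ± 0.05 for mt-Rnr1 and 0.02 ± 0.05 for mt-Rnr2. As a description, the libraries of adults held 14.2 ± 0.74 rRNA counts per 100 protein-coding counts and those of adolescents 15.4 ± 0.92 (SD, n = 20 each).

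**Figure D3:**
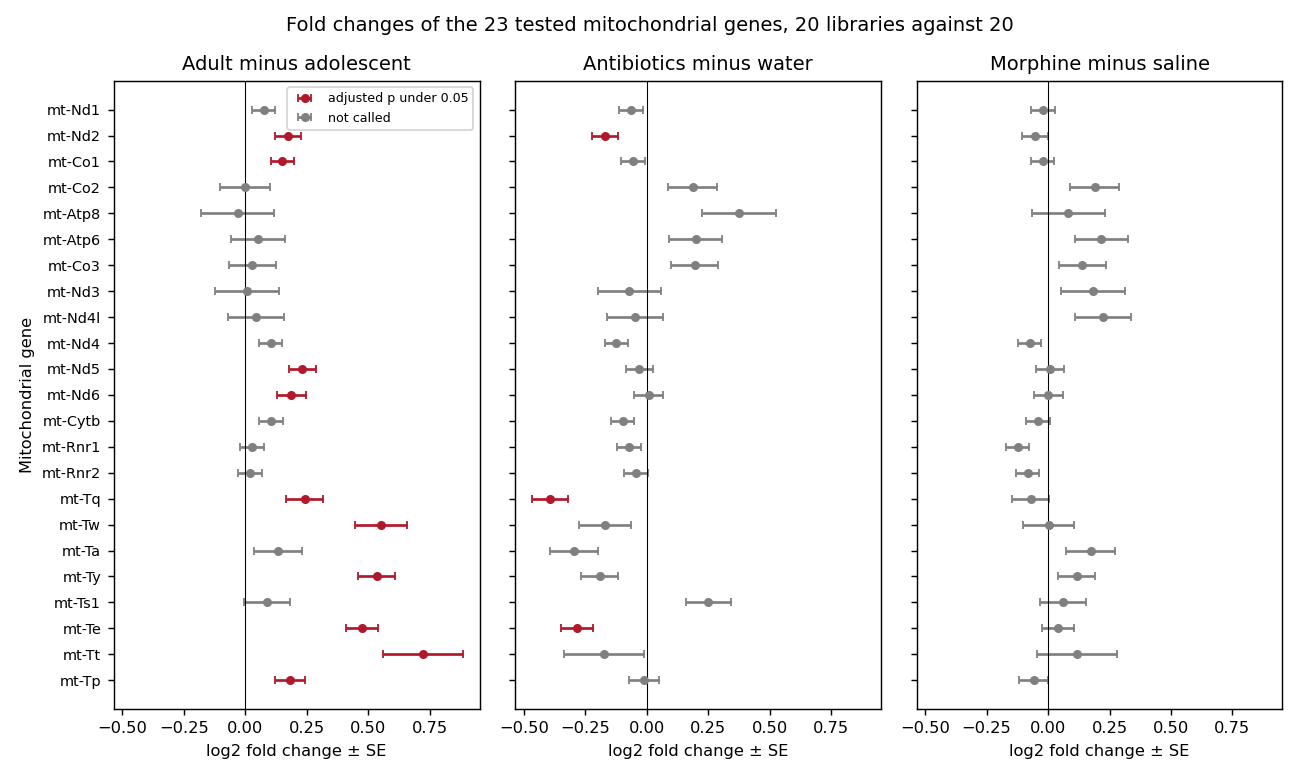
Log2 fold changes with SE (x axis) of the 23 tested mitochondrial genes (y axis) for adults minus adolescents, antibiotics minus water and morphine minus saline, 20 libraries on each side. Red points were called at an adjusted p under 0.05: 10 in the first panel, all above 0, 3 in the second, all below 0, and 0 in the third.

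Within the 4 treatments the age calls were uneven. In mice on antibiotics with saline, 6 of 23 genes were higher in adults (of all genes, 2.79% were higher, and 5.97% were called in either direction). mt-Ty had 16.9, 12.6, 13.99, 16.1 and 16.3 CPM in these adults, against 8.002, 9.19, 8.39, 7.94 and 7.08 CPM in these adolescents, without overlap and with a log2 fold change of 0.90 ± 0.15 (adjusted p = 1.57e-04, edgeR). mt-Te had 32.3, 27.6, 37.7, 30.02 and 34.3 CPM in the adults, against 19.7, 24.3, 25.2, 21.5 and 18.1 CPM in the adolescents, again without overlap (0.57 ± 0.13, adjusted p = 0.00586, edgeR). mt-Nd5 had 5680, 4201, 5670, 4248 and 5478 CPM in the adults, against 3356, 4213, 3978, 3523 and 3568 CPM in the adolescents, where only the lowest adult and the highest adolescent crossed (0.44 ± 0.11). mt-Co1 (0.35 ± 0.09), mt-Tt (1.14 ± 0.34) and mt-Tw (0.66 ± 0.21) were the other 3. In the 10 fits that left out 1 of these libraries, the call was lost in 8 for mt-Tw (adjusted p up to 0.167 in edgeR), in 6 for mt-Tt (up to 0.127), in 6 for mt-Co1 (up to 0.0911) and in 3 for mt-Nd5 (up to 0.0616). Without replicate 1 of the adolescents or without replicate 3 or 5 of the adults 2 genes were called, and without replicate 1 of the adults 3; mt-Ty and mt-Te were called in all 10 such fits.

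In mice on water with morphine, 2 genes were higher in adults (of all genes, 0.397% were higher, 0.531% lower and 0.928% called in all): mt-Te (0.62 ± 0.13) and mt-Ty (0.67 ± 0.15). mt-Te had 41.9, 34.2, 46.7, 48.9 and 34.5 CPM in the adults, against 25.0, 26.3, 31.7, 24.3 and 26.9 CPM in the adolescents, without overlap. The call on mt-Ty was lost without replicate 4 of the adolescents (adjusted p = 0.0505 in edgeR). In mice on antibiotics with morphine only mt-Te was called (0.52 ± 0.13, adjusted p = 0.0371 in edgeR; of all genes, 0.414% were higher and 1.04% called in either direction). It had 38.4, 26.6, 33.1, 27.7 and 25.8 CPM in the adults, against 22.8, 24.2, 17.02, 18.4 and 23.1 CPM in the adolescents, without overlap. That call was lost without replicate 3 or 4 of the adolescents or replicate 1 or 3 of the adults, with adjusted p up to 0.139 in edgeR.

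In mice on water with saline 0 of 23 genes were called by edgeR, DESeq2 or limma, 1 had an unadjusted p under 0.05, and 0.257% of all genes were called in either direction, 0.0783% as higher. The 2 smallest p were those of mt-Tw (0.62 ± 0.21) and mt-Ts1 (0.36 ± 0.19), and mt-Te (0.18 ± 0.13) and mt-Nd5 (-0.04 ± 0.11) were close to level. mt-Tw had 6.36, 5.74, 5.70, 5.14 and 5.31 CPM in these adults, against 4.25, 3.36, 3.15, 3.21 and 4.44 CPM in these adolescents, so that the groups did not overlap although the adjusted p was 0.239 in edgeR. mt-Ts1 had 29.77, 26.40, 37.01, 21.56 and 19.50 CPM in the adults, against 19.16, 22.23, 20.49, 19.15 and 23.75 CPM in the adolescents, where only 3 adult libraries stood higher. The age differences were not shown to depend on treatment. The tests of that difference called 0 of 23 genes for antibiotics under saline, antibiotics under morphine, morphine on antibiotics and morphine on water, by edgeR, DESeq2 and limma, with 11, 0, 1 and 10 genes at an unadjusted p under 0.05, in that order. Percentages of all genes called in these 4 tests were 0.0224%, 0.00559%, 0% and 0%. The smallest p were those of mt-Co1 (0.43 ± 0.13), mt-Tt (-0.87 ± 0.45), mt-Ty (-0.60 ± 0.22) and mt-Nd2 (0.43 ± 0.15), in the same order.

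**Figure D4:**
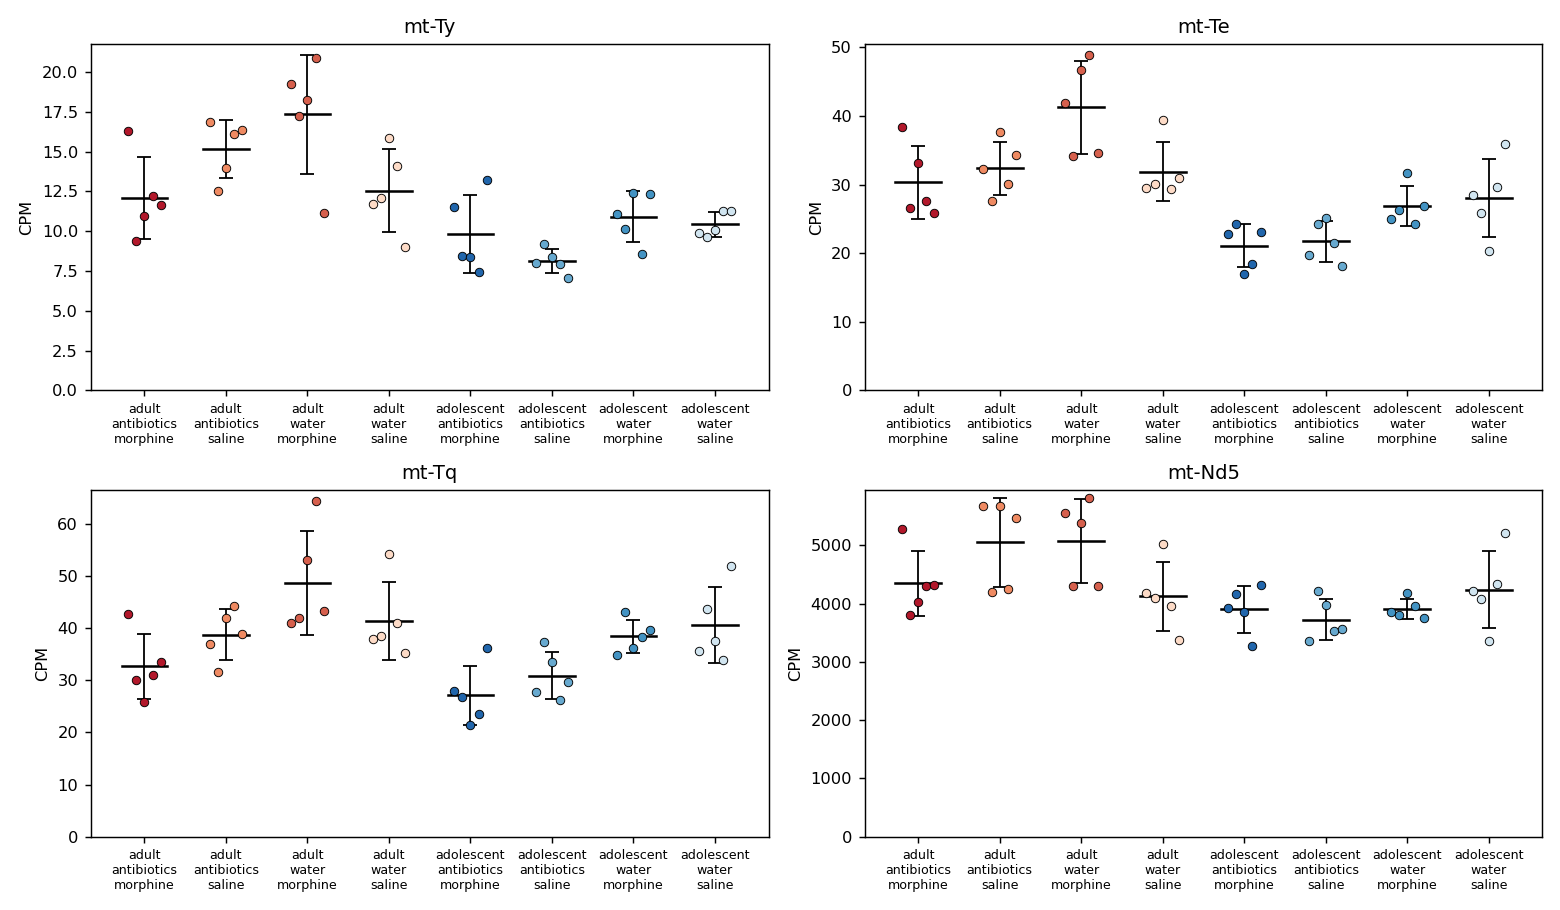
CPM (y axis, from 0) of mt-Ty, mt-Te, mt-Tq and mt-Nd5 in the 8 groups of 5 libraries (x axis). Points are libraries, long bars the mean and whiskers the SD; on antibiotics with saline the adult points of mt-Ty (12.6 to 16.9) lie above the adolescent points (7.08 to 9.19).

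Over all treatments, most nuclear partners of these genes were lower in adults, while some mitochondrial protein-coding genes were higher and none was lower. On water with saline alone, 0 of 23 mitochondrial genes were called with age, and their median log2 fold change was -0.04. Of 74 tested nuclear genes for subunits of complexes I to V, 51 were lower in adults and 0 were higher, with a median log2 fold change of -0.17. Of all genes, 8.57% were called lower and 9.28% higher. On water with saline alone, the summed level of the 74 nuclear genes was 6999 ± 369 CPM in adults and 7275 ± 256 CPM in adolescents (SD, n = 5 each). The ranges, 6550 to 7555 CPM and 7014 to 7691 CPM, overlapped, and the sums were not tested. For complex IV, mt-Co1 was higher and mt-Co2 and mt-Co3 were not called, while all 11 nuclear genes were lower, with a median of -0.24. Cox5b, a structural subunit, fell by 0.43 ± 0.05 on the log2 scale, and Cox4i1, which helps regulate the complex, by 0.22 ± 0.03. For complex I, 3 of 7 mitochondrial genes were higher (median 0.10), while 23 of 36 nuclear genes were lower (median -0.15), with Ndufa2 at -0.39 ± 0.05. For complex III, mt-Cytb had 0.10 ± 0.05 and was not called, while 7 of 9 nuclear genes were lower, with Uqcr11 at -0.53 ± 0.06. For complex V, mt-Atp6 (0.05 ± 0.11) and mt-Atp8 (-0.03 ± 0.15) were not called, while 9 of 14 nuclear genes were lower, with Atp5k at -0.59 ± 0.08. Complex II, which has no mitochondrial gene, had 1 of 4 genes lower, Sdhd (-0.14 ± 0.04).

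**Figure D5:**
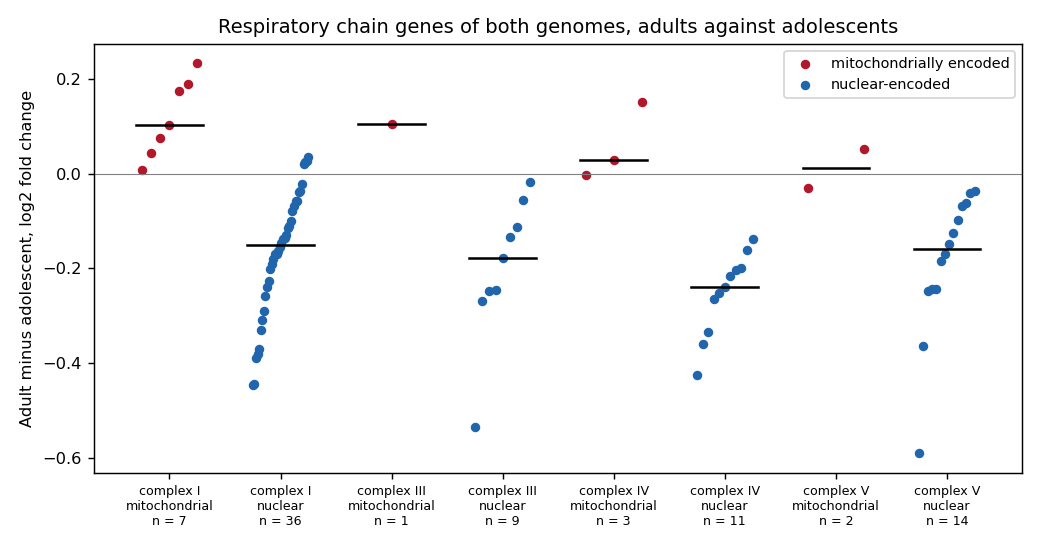
Adult minus adolescent log2 fold change over all treatments (y axis) of each tested gene of complexes I, III, IV and V, mitochondrial genes left of nuclear genes (x axis), with a bar at the median. The mitochondrial medians lie between 0.01 and 0.10, and all 11 nuclear genes of complex IV lie below 0, with a median of -0.24.

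For the genes that read and translate the mitochondrial genome, the counts stand against 17.9% of all genes called in either direction. Of 77 mitochondrial ribosomal protein genes 19 were lower in adults and 1 was higher (median -0.08), with Mrpl41 at -0.25 ± 0.05. Of 18 genes for mitochondrial transcription and replication 1 was higher, Primpol (0.32 ± 0.08), a DNA primase and polymerase, and 2 were lower, the elongation factor Tefm (-0.40 ± 0.11) and the helicase Twnk (-0.11 ± 0.04). Of 23 tested genes for processing and stability of mitochondrial RNA, Fastkd1 was higher (0.16 ± 0.06) and Fastk lower (-0.12 ± 0.03). Of 14 translation factors 1 was lower, Mpv17l2. The shares called in these last 3 lists were under that of all genes. Of 13 regulators of mitochondrial biogenesis 4 were higher, among them Nrip1 (0.20 ± 0.04) and Pprc1 (0.17 ± 0.04), and 2 were lower, among them the deacetylase Sirt3 (-0.24 ± 0.04). Of 9 tested nuclear copies of mitochondrial genes 0 were called by edgeR, and 0 had an unadjusted p under 0.05.

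Some lists of other cell markers held genes called with age. Of all genes, 9.28% were called higher in adults and 8.57% lower, 17.9% in all. Of 12 oligodendrocyte markers 9 were lower in adults, and their summed level was 855 to 1647 CPM in adults and 1208 to 2283 CPM in adolescents. Of 8 markers of oligodendrocyte precursors 4 were lower, with 233 to 347 CPM in adults and 268 to 417 CPM in adolescents. Of 5 tested blood genes 3 were higher, with summed levels of 37.6 to 74.4 CPM in adults and 34.9 to 66.1 CPM in adolescents. Of 6 RNAs retained in the nucleus 3 were higher, with 3234 to 7667 CPM in adults and 3712 to 7636 CPM in adolescents. Endothelial markers were lower for 2 of 10, microglial markers for 1 of 10, and astrocyte markers for 0 of 12. Of 12 excitatory neuron markers 2 were higher and 1 lower, and of 10 interneuron markers 2 were higher and 2 lower. The part of these shifts in the mitochondrial result was not tested.

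Over all groups, 3 of the 23 genes were lower on antibiotics and 0 were higher, where 4.23% of all genes were lower and 3.27% higher, 7.5% in all. The glutamine tRNA gene mt-Tq ranged from 21.4 to 44.3 CPM on antibiotics (median 31.4) and from 33.96 to 64.4 CPM on water (median 40.3). The lowest library on water was thus above the median on antibiotics, and the log2 fold change was -0.39 ± 0.07 (adjusted p = 8.30e-04, edgeR). The glutamate tRNA gene mt-Te had 17.02 to 38.4 CPM on antibiotics (median 25.5) and 20.4 to 48.9 CPM on water (median 29.9), with wide overlap and a log2 fold change of -0.28 ± 0.06 (adjusted p = 0.00449, edgeR). mt-Nd2 had a median of 2492 CPM on antibiotics (1947 to 3706) and 2731 CPM on water (2323 to 3936), a log2 fold change of -0.17 ± 0.05 (adjusted p = 0.0437, edgeR). The calls on mt-Tq and mt-Te held in all 40 fits that left out 1 library, and that on mt-Nd2 was lost in 32 of them (adjusted p up to 0.0938 without replicate 4 of adults on water with morphine). Without replicate 5 of adolescents on antibiotics with morphine, 5 genes were called. mt-Te and mt-Tq are both on the minus strand. The other 5 tested genes of that strand were not called: mt-Ta had -0.30 ± 0.10 (adjusted p = 0.0547, edgeR), mt-Ty -0.19 ± 0.08, mt-Tp -0.01 ± 0.06, mt-Nd6 0.01 ± 0.06 and mt-Ts1 0.25 ± 0.09 (adjusted p = 0.0941, edgeR).

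Within single groups, mt-Tq was called in adolescents under morphine only, the single call among 23 genes there (of all genes, 4.02% were lower, 3.54% higher and 7.56% called in all). It had 27.9, 26.8, 21.4, 23.5 and 36.2 CPM in adolescents on antibiotics with morphine, against 34.8, 43.1, 36.3, 38.4 and 39.7 CPM in adolescents on water with morphine, so that only replicate 5 on antibiotics lay inside the range on water. The log2 fold change was -0.50 ± 0.15 (adjusted p = 0.0333, edgeR), and the call was lost in 8 of 10 fits that left out 1 of these libraries, all but replicate 1 on water and replicate 5 on antibiotics, with adjusted p up to 0.126. The other antibiotic contrasts gave -0.58 ± 0.15 in adults under morphine, -0.39 ± 0.15 in adolescents under saline and -0.10 ± 0.15 in adults under saline for mt-Tq, none of them called by edgeR. mt-Te had -0.44 ± 0.13, -0.37 ± 0.13 and 0.02 ± 0.13 in the same 3 contrasts.

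In adults under morphine, 0 of 23 genes were called by edgeR and limma and 1 by DESeq2 (mt-Tq, adjusted p = 0.0495), 9 had an unadjusted p under 0.05, and 22 of 23 fold changes were below 0. Of all genes 0.028% were called. mt-Tq had 42.77, 30.06, 25.84, 31.08 and 33.61 CPM in adults on antibiotics with morphine, against 41.01, 41.90, 53.08, 64.37 and 43.38 CPM in adults on water with morphine, where replicate 1 on antibiotics was the only crossing. mt-Ty had 16.29, 9.380, 10.93, 12.22 and 11.66 CPM on antibiotics, against 19.27, 17.21, 18.23, 20.86 and 11.15 CPM on water, with replicate 5 on water low. Under saline, edgeR, DESeq2 and limma called 0 of 23 in adults and 0 of 23 in adolescents, with 4 and 12 genes at an unadjusted p under 0.05 and 0.0503% (0.0112% higher) and 0.0391% of all genes called. The smallest p were those of mt-Nd6 (0.35 ± 0.12) and mt-Nd5 (0.29 ± 0.11) in adults, and of mt-Te and mt-Co2 (0.57 ± 0.20) in adolescents. mt-Nd6 had 1833, 1191, 1609, 1374 and 1713 CPM in adults on antibiotics with saline, against 1232, 1182, 1474, 1188 and 975.3 CPM in adults on water with saline, with overlap. mt-Nd5 had 4177, 4092, 5021, 3965 and 3376 CPM in the adults on water, and the antibiotic values given above reached higher in 3 libraries. In adolescents under saline, mt-Te had the 18.10 to 25.16 CPM on antibiotics given above, against 28.45, 25.91, 20.38, 29.61 and 35.83 CPM on water. mt-Co2 had 80.5, 134, 132, 131 and 117 CPM in adolescents on antibiotics with saline, against 78.9, 83.4, 66.5, 82.0 and 89.9 CPM in adolescents on water with saline. All but replicate 1 on antibiotics were above the range on water, and the adjusted p was 0.354 in edgeR. mt-Co2 is 1 of the 5 genes with whole nuclear copies. Their counts per 1000 counts of the 9 most abundant genes, described below, were likewise 5.81 in replicate 1 on antibiotics. They were 8.02, 8.38, 8.77 and 8.16 in replicates 2 to 5 there, and 4.38 to 5.35 on water with saline. The source of that pattern was not tested.

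Few nuclear genes of the mitochondrial lists were called with antibiotics, where 7.5% of all genes were. Of the 74 nuclear respiratory chain genes 1 was lower over all groups, the complex I subunit Ndufb2 (-0.24 ± 0.07), and 0 were higher. Of 77 mitochondrial ribosomal proteins Mrps25 was lower (-0.12 ± 0.03). Of 14 translation factors the elongation factor Tufm was lower (-0.21 ± 0.04), and in RNA processing Tbrg4 was higher (0.13 ± 0.04) and the exoribonuclease Rexo2 lower (-0.13 ± 0.04). Of 12 astrocyte markers 4 were lower, among them Aqp4 (-0.31 ± 0.06), with a summed level of 4754 to 6697 CPM on antibiotics and 5153 to 7945 CPM on water. Of 14 immediate early genes 5 were lower, with 738 to 1770 CPM on antibiotics and 736 to 1714 CPM on water. Markers of oligodendrocyte precursors, microglia and endothelium had 1 lower gene each, of 8, 10 and 10. Ppp1r1b (0.29 ± 0.04) and Pde10a (0.21 ± 0.04) were higher among 10 genes typical of striatal neurons, as were Neurod2 (0.11 ± 0.03) of 12 excitatory neuron markers and Vip (0.17 ± 0.04) of 10 interneuron markers. Hist1h2bc, of 3 listed histone genes that passed the filter, was lower (-0.22 ± 0.06). Their part in the mitochondrial values was not tested.

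Between morphine and saline, 0 of 23 mitochondrial genes were called over all groups by edgeR, DESeq2 and limma, where 4.35% of all genes were called (2.54% higher and 1.81% lower), and 1 gene had an unadjusted p under 0.05. That gene, the small rRNA mt-Rnr1, had 1740 to 2831 CPM under morphine (median 2085) and 1972 to 3011 CPM under saline (median 2221), a log2 fold change of -0.12 ± 0.05 (adjusted p = 0.147, edgeR). Without replicate 4 of adults on water with morphine 1 gene was called. mt-Atp6 was next, with 47.5 to 122 CPM under morphine (median 73.6) and 39.1 to 95.0 CPM under saline (median 59.1), a log2 fold change of 0.22 ± 0.11 (adjusted p = 0.296, edgeR). In the same libraries 12 of 14 immediate early genes were lower under morphine, with Btg2 at -1.17 ± 0.10. Of 3 listed histone genes that passed the filter 2 were lower, Hist1h1c (-0.34 ± 0.08) and Hist1h2bc (-0.24 ± 0.06), and of 5 blood genes 2 were higher. Of 12 excitatory neuron markers 3 were higher, and of 12 oligodendrocyte markers 2; their part in the mitochondrial values was not tested.

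In single groups the fold changes of morphine had opposite medians. In adults on water all 23 were above 0, with a median of 0.23, and in adults on antibiotics 7 of 23 were, with a median of -0.16. In adolescents the medians were -0.08 on water and -0.02 on antibiotics. None of these 4 contrasts called a mitochondrial gene by edgeR, DESeq2 or limma, with 7, 6, 1 and 1 genes at an unadjusted p under 0.05 in the order given, and 0.475% (0.263% higher), 0.213%, 0.319% and 2.92% (1.58% higher and 1.34% lower) of all genes called. mt-Ty in adults on water had the smallest p (0.46 ± 0.14, adjusted p = 0.150 in edgeR), with 19.3, 17.2, 18.2, 20.9 and 11.1 CPM under morphine, against 11.7, 12.1, 15.8, 14.1 and 8.99 CPM under saline. All but replicate 5 under morphine were above the saline range. mt-Ta had 5.353, 5.152, 8.424, 6.848 and 4.808 CPM under morphine in these adults, against 4.843, 4.837, 4.928, 2.736 and 3.034 CPM under saline (0.57 ± 0.19).

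In adults on antibiotics the complex I subunit gene mt-Nd4 (-0.24 ± 0.10) and mt-Rnr1 (-0.23 ± 0.10) had the smallest p. mt-Nd4 had 3251, 2730, 2659, 2971 and 2960 CPM under morphine, against 4031, 2894, 3563, 3112 and 3605 CPM under saline. mt-Rnr1 had 2118, 1926, 2015, 2111 and 1884 CPM under morphine, against 2551, 2160, 2319, 2250 and 2512 CPM under saline, without overlap and with an adjusted p of 0.616 in edgeR. In adolescents on water mt-Nd4 (-0.20 ± 0.10) and mt-Tp (-0.22 ± 0.12) were first. mt-Nd4 had 2854, 2954, 3233, 3073 and 2879 CPM under morphine, against 3127, 3353, 2833, 3522 and 4341 CPM under saline, and mt-Tp had 42.67 to 50.65 CPM, against 44.87 to 64.54 CPM. In adolescents on antibiotics these were mt-Tt (0.75 ± 0.35) and mt-Ty (0.27 ± 0.16). mt-Tt had 1.904, 0.7374, 2.179, 1.566 and 0.9613 CPM under morphine, against 0.7621, 0.4082, 0.6368, 1.254 and 1.349 CPM under saline. mt-Ty had 11.52, 8.427, 8.406, 7.438 and 13.24 CPM under morphine, where replicates 1 and 5 stood above the 7.081 to 9.185 CPM under saline. The interaction of antibiotics with morphine called 0 of 23 genes in adults and 0 in adolescents by the same 3 tools, with 11 and 1 genes at an unadjusted p under 0.05 and 0% and 1.24% of all genes called. Its smallest p in adults was that of mt-Ty (-0.79 ± 0.21, adjusted p = 0.449 in edgeR). The fold changes of these contrasts share libraries, so they are not independent of each other.

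Over libraries, most mitochondrial genes varied in 2 sets. After removal of group means, log2 CPM of the 9 most abundant genes (mt-Rnr1, mt-Rnr2, mt-Nd1, mt-Nd2, mt-Co1, mt-Nd4, mt-Nd5, mt-Cytb, mt-Nd6) correlated at r = 0.69 to 0.97 in their 36 pairs, with a median of 0.91 (n = 40 libraries, which share depth and scaling). The 5 genes with whole nuclear copies correlated at 0.72 to 0.94 among themselves, and at 0.41 to 0.63 with the 9. The tRNA genes mt-Tp, mt-Te and mt-Tq went with the 9, at medians of 0.80, 0.74 and 0.66, while mt-Ts1 had a median of 0.39 with the 9 and of 0.69 with the 5. mt-Ty (0.59) and mt-Tw (0.45) were between, and the thinly counted mt-Ta (0.30) and mt-Tt (0.16) were loose. mt-Atp8, with a median of 18 counts, went with neither set, at r = 0.16 to 0.32 with the 9 and -0.01 to 0.14 with the 5.

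The ratio of the 2 sets varied from library to library. The 5 copied genes had 3.75 to 8.77 counts per 1000 counts of the 9 abundant genes. The value ranged from 6.50 to 7.66 in adults on antibiotics with morphine, 3.75 to 6.72 in adults on antibiotics with saline, 4.87 to 7.76 in adults on water with morphine and 4.83 to 6.98 in adults on water with saline. In adolescents it ranged from 7.48 to 8.74 on antibiotics with morphine, 5.81 to 8.77 on antibiotics with saline, 4.78 to 8.15 on water with morphine and 4.38 to 5.35 on water with saline. Some groups were split inside: adolescents on water with morphine had 4.82, 4.92 and 4.78 in replicates 1 to 3 but 8.15 and 7.53 in replicates 4 and 5, and adults on water with saline had 6.98, 6.95 and 6.94 in replicates 1 to 3 but 4.83 and 4.91 in replicates 4 and 5. The 5 nuclear copies gave 4.61 to 11.2 counts per 1000 over the same libraries. No label gives a collection or sequencing batch, and a source of this split was not tested.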

How the data were processed

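RNA of 40 libraries was counted per gene by the authors, who deposited 1 table of raw counts, not normalized, for 56980 genes. Per the submitters' processing notes, STAR 2.7.10a, DESeq2 and mm10 were used. Strand setting, annotation and handling of multiply matching reads: not given in the sources used here. Only the column names, which end in ReadsPerGene.out as STAR's gene counts do, bear on the last. Of the identifiers 91.4% matched a symbol of GENCODE M21 without version. Totals were 8636712 to 12098769; floors of 3 counts cover counting error only.

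With R 4.3.3 and edgeR 4.0.16, filterByExpr (minimum count 10, minimum total 15) left 17880 genes, 23 of them mitochondrial. TMM scaling and robust quasi-likelihood fits with 1 coefficient per group used all 40 libraries, with Benjamini-Hochberg adjustment across the 17880. The SE is the log2 fold change over the square root of F. DESeq2 1.42.0 and limma 3.58.1, other scalings, filters, a replicate block and left-out libraries were alternatives. The code was tested on simulated data. No pair of replicates differed by as little as sampling noise (mean chi-square per gene 2.20 to 16.2). Sequences were aligned with Biopython 1.88.

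The mitochondrial genes and all lists were chosen with earlier results of these data known. All mitochondrial genes are accounted for; values are given for called genes, or the 2 of smallest p where a contrast of 2 groups called none, and for up to 3 called genes of smallest p per nuclear list. The mt-Nd5 count above the adolescent range was chosen after its values were seen.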

Additional observations from a re-analysis of the deposited data

Results flagged for a closer look

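Of 192 sets of 5 values, made of each tested mitochondrial gene and the mitochondrial share in each group, 5 held a library whose gap to its nearest neighbour was over 0.71 of the range; chance gives about 1 in 20. mt-Atp6 in replicate 3 of adolescents on water with saline had 39.1 CPM, against 54.0 to 59.8 CPM in the other 4. mt-Co3 in replicate 1 of adolescents on antibiotics with saline had 61.7 CPM, against 90.4 to 100.2 CPM. mt-Te in replicate 3 of adults on water with saline had 39.4 CPM, against 29.3 to 30.9 CPM. mt-Nd3 in replicate 3 of adults on antibiotics with morphine had 7.15 CPM, against 8.95 to 9.68 CPM. mt-Tt in replicate 5 of adults on antibiotics with morphine had 2.26 CPM, against 1.60 to 1.76 CPM. The cause of each was not tested.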

How the results depend on the processing

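The fold changes of called genes and, where a comparison called none, of the 2 genes of smallest p kept their direction under every alternative; other named fold changes were not recomputed. Counts of called mitochondrial genes moved by over 1.5 times as follows; the cause was not tested. With no filter on low counts, age over all treatments gave 6 calls against 10, morphine on water in adults 2 against 0, antibiotics under morphine in adults 2 against 0, and the interaction in adults 1 against 0. With only the compared groups fitted, age on water with morphine gave 4 against 2 and antibiotics under morphine in adolescents 3 against 1; for antibiotics under morphine in adolescents limma gave 2. DESeq2 gave 1 for antibiotics under morphine in adults against 0. With 1 library left out, the calls ranged from 8 to 10 for age over all treatments, 2 to 8 for age on antibiotics with saline, 1 to 2 on water with morphine, 0 to 1 on antibiotics with morphine, 2 to 5 for antibiotics over all groups, 0 to 1 for antibiotics under morphine in adolescents, 0 to 1 for morphine over all groups, and 0 in the other comparisons. mt-Nd2 lost its antibiotic call with RLE, total-count and nuclear scaling (adjusted p 0.0518, 0.0646 and 0.0562 in edgeR), and mt-Co1 and mt-Tp their age calls with total counts (0.0603 and 0.0568). With no filter mt-Nd2 lost its antibiotic call (0.102), and mt-Tq, mt-Nd2, mt-Co1 and mt-Nd6 lost their age calls over all treatments (0.0505, 0.0543, 0.0779 and 0.0543). Also with no filter, mt-Tq lost its call for antibiotics under morphine in adolescents (0.0688), and mt-Co1 its age call on antibiotics with saline (0.0680). Counts of nuclear copies added to the mitochondrial genes, an alternative chosen after seeing the data, changed no count of calls. The nuclear respiratory chain gave 50 to 56 lower genes. Samples with the same replicate number deviated together little (60 pairs, r from -0.16 to 0.20, 6 over 0.1). Their mean r was 0.0098, against -0.0024 in other pairs. Of 40 libraries, 13 correlated best with their own number, among 5 numbers. The replicate block gave 4 calls for antibiotics over all groups against 3, the same counts elsewhere, and no call on mt-Tw for age on antibiotics with saline (adjusted p = 0.0535, edgeR), which was also lost with total counts (0.0561) and with only the compared groups (0.0530). Counts were too low to test the 14 tRNA genes under the filter, and mt-Tt was thinly counted. Whether more depth would change this was not tested.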
